A study of Rattus norvegicus with 15 samples.

Results

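Liver transcriptomes were compared between rats given Zexie Decoction (ZXD) and rats given saline (HFD), both on the same lipid-rich diet. All libraries labelled ZXD or HFD were taken, 5 of each, so the comparison used 10 of the 15 libraries of the series. The animals were male Sprague-Dawley rats acclimatised for 1 week on chow, and the labels give no age. The diet was 66% base forage with 16.7% sucrose, with 7% lard and 8.3% yolk as fats, and with 2% cholesterol. It also contained sodium cholate, a bile salt, at 0.3% and propylthiouracil at 0.2%. Propylthiouracil blocks thyroid hormone synthesis and was given to both groups. After 4 weeks on the diet, ZXD rats received the decoction by mouth at 2.2 g/kg per day and HFD rats received saline, each for another 4 weeks with the diet continued. The remaining group (CON, 5 libraries) stayed on chow and is used here for reference levels and for the shared estimate of spread. Each group was described as 10 rats. Which of them gave the 5 libraries, and whether any were pooled, is not given in the sources used here, so p-values measure the spread between these libraries, which may be technical.

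Zexie Decoction is a classical Chinese preparation of Alisma and Atractylodes rhizomes that is used for disorders of fluid and lipid metabolism. The liver balances cholesterol through synthesis by the mevalonate pathway, uptake of lipoproteins, conversion to bile acids and biliary secretion. Sterols entering hepatocytes restrain the transcription factors that drive synthesis and uptake, oxysterols activate the liver X receptors that drive efflux, and bile acids activate the farnesoid X receptor, which represses their own synthesis. The comparison asks which of these steps, and which other liver functions, differed in RNA level when the decoction was added to the diet.

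Read totals over genes were alike, from 12552449 to 13687385 in HFD and from 12688915 to 13532245 in ZXD, and a count of 3 in a diet library was worth 0.183 to 0.234 CPM, the scaled count relative to library size used for all levels below. Hepatocyte marker genes were abundant in every library, with summed levels of 74800 to 108000 CPM in HFD and 55400 to 106000 CPM in ZXD. In bulk tissue, more cells of a type and more RNA per cell cannot be told apart. Libraries did not fall cleanly by group. The first principal component of the 10 libraries held 46.8% of the variance, and its highest scores were those of ZXD 4 (80.1) and ZXD 3 (48.7), followed by HFD 5 (32.7) and HFD 2 (30.3). The second component held 17.5%, and ZXD libraries scored between 16 and 28.9 while HFD libraries scored between -45.1 and 12.7.

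A property of 3 HFD libraries ran through many genes and is given before any gene. Within each library, the deviation of a gene from its mean over all libraries had a slope on gene length, expressed in log2 units per doubling of length. In HFD the slopes were 0.014, -0.077, -0.088, 0.048 and -0.065 for libraries 1 to 5. In ZXD they were 0.056, 0.072, -0.012, 0.056 and 0.055. HFD 2, HFD 3 and HFD 5 thus read long genes low relative to short genes, a tilt that no ZXD library showed to that degree, although CON 2, CON 3 and CON 5 also had negative slopes of -0.052, -0.035 and -0.039. When the tested genes were cut into 5 equal classes by length, the median log2 fold change of ZXD against HFD ran from -0.12 for the shortest class to 0.15 for the longest. Genes with an unadjusted p under 0.05 followed the same order: 130 were higher and 293 lower in the shortest class, against 447 higher and 87 lower in the longest. The median length was 3422 bases for genes whose ZXD libraries all lay above HFD, 1586 bases for genes whose ZXD libraries all lay below, and 2312 bases for all tested genes. The part that this tilt has in a given gene's difference was not tested. For many of the genes that move with it, the ratio is also given from a fit with the slope as a covariate, or from a fit without HFD 2, HFD 3 and HFD 5. Both fits were added after the data were seen.

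**Figure D1:**
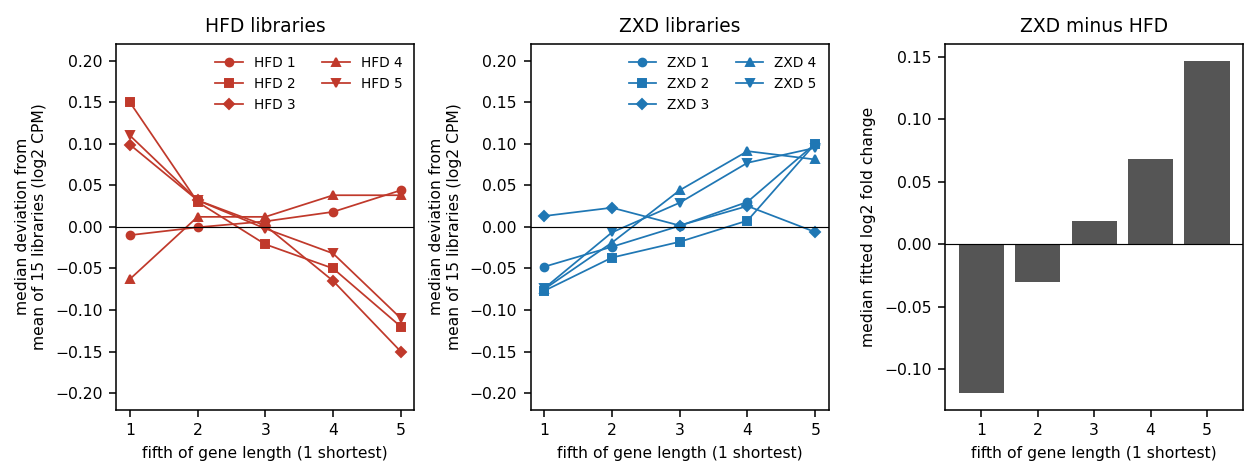
Left, median deviation (log2) of genes in 5 equal classes of gene length for each HFD and ZXD library; right, median log2 fold change of ZXD against HFD in the same classes. The bars run from -0.12 in the shortest class to 0.15 in the longest, and HFD 2, HFD 3 and HFD 5 fall with length.

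No gene passed the transcriptome-wide test. Of 13163 genes tested with edgeR's quasi-likelihood test and Benjamini-Hochberg adjustment, 0 were called higher (0%) and 0 lower (0%), and the smallest adjusted p was 0.11. Limma voom also called 0 genes, and DESeq2's Wald test called 348, of which 216 were higher and 132 lower in ZXD. At an unadjusted p under 0.05 the edgeR fit held 2167 genes (16.5%), 1295 higher (9.84%) and 872 lower (6.62%). Counts of list members at that threshold, given below for this fit, are to be read beside these shares. For comparison, HFD against CON in the same fit called 2758 genes (21%), 1322 higher (10%) and 1436 lower (10.9%). The comparison of HFD with CON shares the 5 HFD libraries with that of ZXD with HFD, so values from both are set side by side below and not related to each other. List counts from other edgeR fits are to be read beside the totals of those fits. With the length slope as a covariate, 1487 of 13163 genes had an unadjusted p under 0.05, 58.4% of them higher in ZXD. Without HFD 2, HFD 3 and HFD 5 there were 1495 of 13762, 61.4% of them higher. With a macrophage score, the average of macrophage markers, there were 2381 of 13163, 57.1% of them higher.

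Separation of individual libraries was counted as a second description. All 5 ZXD libraries lay outside the range of all 5 HFD libraries for 484 genes (3.68%), 282 of them above (2.14%) and 202 below (1.53%). The count was larger when some single libraries were left out, reaching 969 without HFD 1, 746 without HFD 4 and 859 without ZXD 2. Leaving out any diet library makes separation easier by itself. The typical difference was small: the middle of the distribution of log2 fold changes ran from -0.20 at the lower quartile to 0.30 at the upper, around a median of 0.02, and 82.8% of genes had a ratio within 1.5-fold.

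The 95% intervals show what size of difference each gene's data left room for. The interval lay wholly within 1.5-fold of no difference for 4814 of 13154 genes with an interval (36.6%), and wholly within 2-fold for 8843 (67.2%). In 99 genes the interval lay wholly beyond 1.5-fold, 76 higher and 23 lower in ZXD. These intervals hold for each gene alone and not for all genes together. Intervals were widest for the genes of lowest level. Below 1 CPM the median interval spanned a factor of 2.36 to either side of the estimate, between 1 and 10 CPM a factor of 1.65, between 10 and 100 CPM a factor of 1.28 and above 100 CPM a factor of 1.33.

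The cholesterol synthesis pathway stood low in both diet groups. All 20 measured enzymes were called lower in HFD than in CON, where 10.9% of all genes were. In all 20 the 5 ZXD libraries also lay below the 5 CON libraries, an arrangement found in 9.79% of all genes. Between ZXD and HFD the median log2 fold change of the 20 genes was -0.07, with 7 positive and 13 negative, and no member's libraries were fully separated. At an unadjusted p under 0.05, 1 enzyme was higher and 2 were lower, where 9.84% and 6.62% of all genes were. With the length slope as a covariate 0 were higher and 3 lower, with a median of -0.23. Without HFD 2, HFD 3 and HFD 5, 0 were higher and 2 lower, with a median of -0.13, and 3 were then separated in the lower direction. With those 3 libraries left out, 2043 of 13762 tested genes were separated in either direction. In 7 of the 20 the interval lay within 1.5-fold and in 17 within 2-fold.

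Fdps, which makes farnesyl diphosphate, stood at 26.9, 22.4, 31.6, 26.4 and 22.9 CPM in HFD and at 28.4, 30.5, 25.4, 22.8 and 25.7 CPM in ZXD, with CON at 156 to 220 CPM. The diet groups overlapped almost entirely, and the ratio of ZXD to HFD was 1.02 (95% interval 0.848 to 1.23), beside a level 7.57-fold higher in CON than in HFD. Sqle, the squalene epoxidase that commits the pathway to sterols, averaged 7.76 ± 1.12 CPM (SD, n = 5) in HFD and 7.37 ± 0.477 CPM (SD, n = 5) in ZXD, a ratio of 0.951 (0.727 to 1.24). Cyp51, the lanosterol demethylase, had a ratio of 0.886 (0.679 to 1.16) and was 14.8-fold higher in CON than in HFD. With the length slope as a covariate the ratio of Cyp51 was 0.73. For Msmo1 and Nsdhl, which remove methyl groups from sterol intermediates, the intervals ran from 0.689 to 1.44 and from 0.734 to 1.37, with ratios of 0.998 and 1. None of these 5 intervals reached a 2-fold difference in either direction.

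Idi1, the isomerase of isopentenyl diphosphate, was the 1 enzyme higher at an unadjusted p under 0.05. Its values were 3.37, 4.26, 1.92, 5.45 and 2.78 CPM in HFD and 5.16, 5.54, 4.05, 6.29 and 3.99 CPM in ZXD, with overlap. The ratio was 1.41 (1.01 to 1.95, adjusted p 0.285, edgeR), and it was 1.14 with the length slope as a covariate. Pmvk, phosphomevalonate kinase, went the other way, at 7.77, 9.91, 12.3, 12.8 and 14.9 CPM in HFD against 8.74, 7.95, 6.99, 7.45 and 7.54 CPM in ZXD, a ratio of 0.671 (0.506 to 0.888, adjusted p 0.187, edgeR). The level of Idi1 in ZXD remained far from its CON range of 80.8 to 108 CPM.

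**Figure D2:**
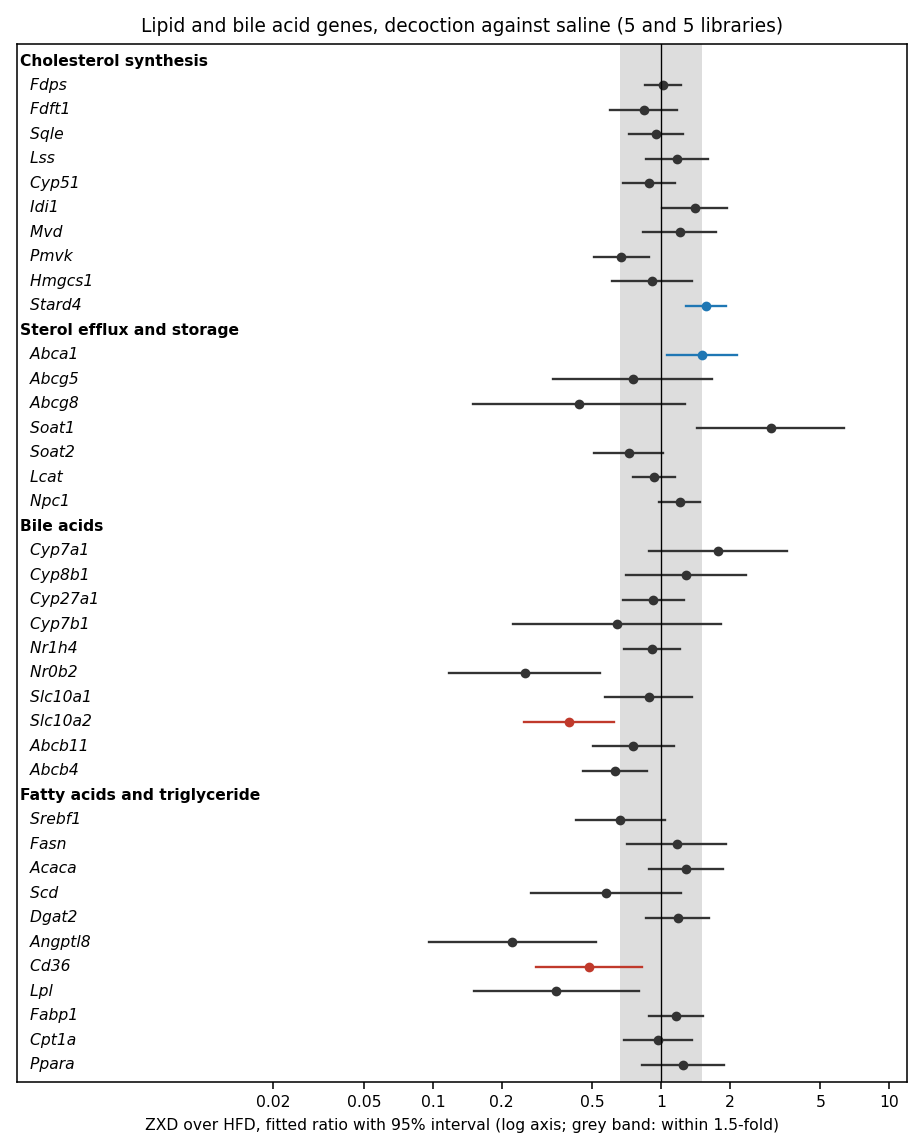
Ratio of ZXD to HFD (log axis) with its 95% interval for genes of cholesterol synthesis, sterol handling, bile acids and fatty acids; the grey band marks 1.5-fold, blue marks genes whose ZXD libraries all lie above HFD and red those all below. Fdps at 1.02 and Cyp27a1 at 0.923 lie inside the band with their intervals, Stard4 lies to the right of no difference, and Slc10a2 and Cd36 to the left.

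Among 12 tested genes of sterol sensing and uptake, 3 were higher and 0 lower at an unadjusted p under 0.05, with a median log2 fold change of 0.14. Over all genes 9.84% were higher and 6.62% lower at that threshold. The best separated was Stard4, which carries cholesterol between membranes in the cell. It stood at 12.7, 17.5, 15.7, 17.2 and 15.9 CPM in HFD, at 31.4, 27.1, 23.9, 18.3 and 23.7 CPM in ZXD and at 51.4 to 63.2 CPM in CON. Every ZXD library was above every HFD library and below every CON library. The ratio to HFD was 1.58 (1.29 to 1.93, adjusted p 0.139, edgeR), it lay between 1.47 and 1.68 when any 1 diet library was left out, and it was 1.54 with the length slope as a covariate and 1.66 without HFD 2, HFD 3 and HFD 5. DESeq2 gave an adjusted p of 0.00734 for Stard4, and over the alternatives its adjusted p ran from 0.00734 to 0.42.

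Sort1, a sorting receptor for lipoproteins, was also separated, at 16.6, 13.5, 8.49, 20 and 13.4 CPM in HFD and 25.9, 25, 24, 25.8 and 24.1 CPM in ZXD. Its ratio was 1.73 (1.2 to 2.49), and its log2 fold change of 0.79 became 0.33 with the length slope as a covariate. Lrp1, a large remnant receptor, had values of 584, 389, 389, 387 and 408 CPM in HFD and 494, 528, 822, 869 and 797 CPM in ZXD. Only HFD 1 overlapped the ZXD range, and the ratio was 1.63 (1.19 to 2.23). Scarb1, the receptor for high-density lipoprotein, differed little, with a ratio of 0.956 (0.823 to 1.11), and Npc1, which exports cholesterol from lysosomes, had a ratio of 1.21 (0.985 to 1.48).

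On the efflux side, Abca1, which loads cholesterol onto apolipoprotein A-I, stood at 138, 127, 71.6, 96.9 and 108 CPM in HFD and at 158, 173, 148, 191 and 147 CPM in ZXD. The groups did not overlap, and the ratio was 1.51 (1.06 to 2.15, adjusted p 0.243, edgeR), but 1.13 with the length slope as a covariate. The biliary sterol transporters Abcg5 and Abcg8 had ratios of 0.752 (0.337 to 1.68) and 0.439 (0.151 to 1.28), with wide overlap. Abcb4, which moves phospholipid into bile, was at 59.3, 124, 126, 126 and 101 CPM in HFD and at 69.8, 79.7, 68, 58.8 and 62.6 CPM in ZXD, a ratio of 0.631 (0.457 to 0.872). HFD 1 was the 1 HFD library within the ZXD range. Of the liver X receptor genes, Nr1h3 had a ratio of 1.1 (0.94 to 1.29) and Nr1h2 one of 0.815 (0.693 to 0.958). Of the 10 genes of efflux, 1 was higher and 2 lower at an unadjusted p under 0.05.

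Cholesterol esterification in storage droplets is catalysed by Soat1 and Soat2. Soat1, also abundant in macrophages, was at 5.57, 7.82, 2.73, 4.84 and 6.17 CPM in HFD and at 10.2, 4.44, 17.3, 42.4 and 7.68 CPM in ZXD, a ratio of 3.02 (1.45 to 6.33). ZXD 4 decided much of its size: the ratio was 1.83 without that library and 1.61 with a macrophage score as a covariate. Soat2, the hepatocyte form, had a ratio of 0.721.

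In bile acid synthesis no gene of 14 had an unadjusted p under 0.05, and 11 of 14 intervals lay within 2-fold. Cyp7a1, the rate-limiting enzyme of the classical route, was at 467, 291, 142, 413 and 554 CPM in HFD and at 896, 848, 294, 385 and 910 CPM in ZXD. ZXD 1, ZXD 2 and ZXD 5 were above all HFD libraries, and ZXD 3 and ZXD 4 were not. The ratio was 1.79 (0.89 to 3.58), so the data leave room for a change from slightly lower to more than 3-fold higher. With the length slope as a covariate the ratio was 0.963. Cyp8b1, which makes cholic acid, had a ratio of 1.29 (0.704 to 2.35), and 0.762 in the same fit. Cyp27a1, which opens the alternative route, had one of 0.923 (0.679 to 1.26).

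Among the genes of bile acid sensing and transport, Nr0b2 had the lowest fitted ratio. It encodes the small heterodimer partner, a repressor induced by the farnesoid X receptor. HFD libraries held 16.4, 28.9, 34.8, 100 and 18.4 CPM, and ZXD libraries 9.63, 19.4, 9.64, 9.03 and 2.46 CPM. Only ZXD 2 reached into the HFD range. The ratio was 0.253 (0.118 to 0.54, adjusted p 0.155, edgeR), and 0.406 without HFD 4, the highest library. With the length slope as a covariate it was 0.168, and over the alternatives the adjusted p for Nr0b2 ran from 0.0124 to 0.374.

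Slc10a2, the apical transporter that in liver takes bile acids up from the duct lumen, belonged to none of the lists and was fully separated. It stood at 16.1, 15.4, 10.3, 9.41 and 16.2 CPM in HFD, at 5.5, 3.2, 7.06, 8.3 and 2.39 CPM in ZXD, and at 2.6 to 5.42 CPM in CON. Each ZXD library was below each HFD library, and ZXD overlapped CON. The ratio was 0.394 (0.25 to 0.62, adjusted p 0.139, edgeR). It lay between 0.337 and 0.448 when 1 diet library was left out, and was 0.463 with the length slope as a covariate and 0.415 without HFD 2, HFD 3 and HFD 5. DESeq2 gave Slc10a2 an adjusted p of 0.00734, and over the alternatives the adjusted p ran up to 0.446. Of the other transporters, Abcb11, the bile salt export pump, had a ratio of 0.755 (0.501 to 1.14), Slc10a1, the basolateral uptake carrier, one of 0.884, and Nr1h4, the farnesoid X receptor itself, one of 0.916 (0.691 to 1.22). Klb, the co-receptor through which intestinal fibroblast growth factor represses bile acid synthesis, was separated in the higher direction with a ratio of 1.43 (0.982 to 2.09). With the length slope as a covariate the log2 fold change of Klb was 0.16.

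**Figure D3:**
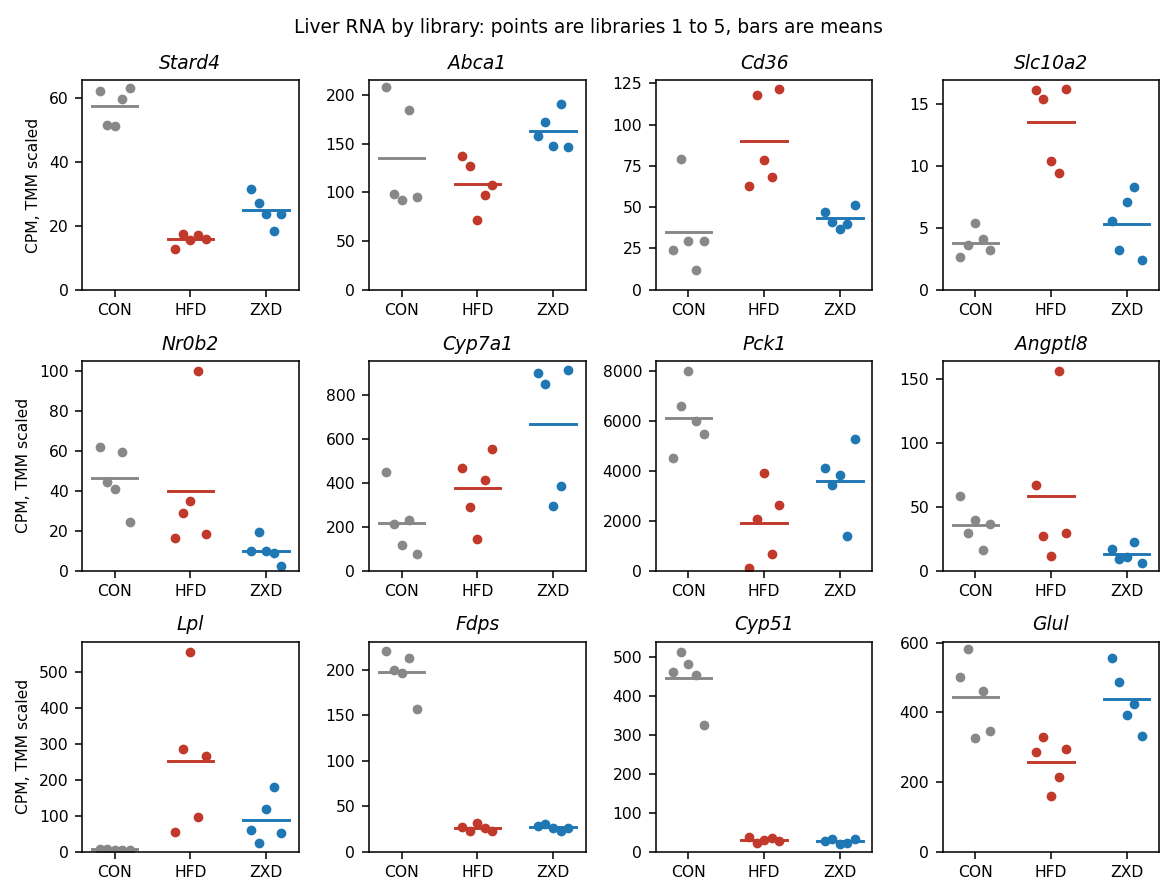
Scaled CPM (linear axes from 0) of 12 genes in each CON, HFD and ZXD library; points are libraries and bars are group means. Stard4, Abca1 and Glul lie higher in all ZXD libraries than in all HFD libraries, Slc10a2 and Cd36 lower, while Nr0b2 and Angptl8 have their highest HFD value in HFD 4.

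Of 17 fatty acid synthesis genes tested, 1 was higher and 0 lower at an unadjusted p under 0.05, and the median log2 fold change was -0.12. With the length slope as a covariate 1 was higher and 5 lower with a median of -0.26, and without HFD 2, HFD 3 and HFD 5, 2 were higher and 3 lower with a median of -0.35. Fasn, fatty acid synthase, was at 22.2, 20.1, 7.31, 16.1 and 19.8 CPM in HFD and at 10.7, 11.6, 20.8, 35.5 and 21.4 CPM in ZXD, a ratio of 1.17 (0.711 to 1.93). Acaca, which supplies malonyl-CoA, had a ratio of 1.28 (0.886 to 1.86), and its direction turned with the length slope as a covariate and without HFD 2, HFD 3 and HFD 5. Srebf1, the transcription factor of lipogenesis, was at 168, 116, 64.6, 166 and 118 CPM in HFD and 80, 107, 78.6, 74.2 and 79.7 CPM in ZXD, a ratio of 0.664 (0.426 to 1.04), and 0.432 with the length slope as a covariate. Scd, the stearoyl-CoA desaturase, had a ratio of 0.575 (0.27 to 1.23), and 0.337 in that fit.

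Genes that respond to insulin and fasting were uneven across the HFD libraries. Angptl8, an inhibitor of lipoprotein lipase made after feeding, was at 66.7, 26.9, 11.6, 156 and 29.7 CPM in HFD and at 17.2, 8.81, 10.6, 22.1 and 6.16 CPM in ZXD. Its ratio was 0.223 (0.0959 to 0.519), and 0.384 without HFD 4. HFD 1 and HFD 4, the libraries highest in Angptl8, were the lowest in HFD for Pck1 (114 and 676 CPM) and G6pc (34.4 and 64 CPM), enzymes of glucose output. Pck1 was at 2080, 3930 and 2640 CPM in the other HFD libraries and had a ratio of 1.91 (0.78 to 4.68). Its log2 fold change of 0.93 became 2.43 with the length slope as a covariate.

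Triglyceride handling gave mixed results, with 3 of 23 genes higher and 2 lower at an unadjusted p under 0.05, where 9.84% and 6.62% of all genes were. Lpin1, a phosphatidate phosphatase, had a ratio of 1.96 (1.16 to 3.32), and only HFD 4 of the HFD libraries was within the ZXD range of 68.2 to 193 CPM. Dgat1, which joins the last fatty acid, was at 31.7, 31.6, 34.1, 39.3 and 36.5 CPM in HFD and at 26.4, 32.4, 23.3, 17.8 and 23.6 CPM in ZXD, a ratio of 0.713 (0.562 to 0.905). Dgat2 had a ratio of 1.18. Of 23 genes of lipoproteins and plasma lipases, 3 were higher and 3 lower at that threshold. Apof, a minor apolipoprotein, had a ratio of 1.64 (1.07 to 2.51). Mttp, which loads lipid onto nascent lipoproteins, differed little (1.02, 0.806 to 1.29), and so did Lipc, hepatic lipase (1, 0.73 to 1.38).

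Lpl, lipoprotein lipase, shows how a ratio rested on a few libraries. Its values were 53.9, 286, 554, 96.9 and 266 CPM in HFD and 60.4, 24.3, 119, 180 and 52 CPM in ZXD. HFD 2, HFD 3 and HFD 5 were high, and HFD 1 and HFD 4 lay within the ZXD range. The ratio was 0.347 (0.151 to 0.799), but 0.857 with the length slope as a covariate and 1.15 without those 3 libraries. Cd36, the fatty acid translocase, was at 62.5, 118, 78.7, 68.1 and 121 CPM in HFD and at 47.3, 40.9, 37, 39.9 and 51.3 CPM in ZXD, with no overlap. Its ratio of 0.482 (0.282 to 0.823) became 0.781 with the slope as a covariate and 0.66 without the 3 libraries.

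Few fatty acid oxidation genes differed at the unadjusted threshold. Among 37 tested genes of fatty acid uptake and oxidation, 1 was higher and 1 lower at an unadjusted p under 0.05, where 9.84% and 6.62% of all genes were. Of their intervals 8 lay within 1.5-fold and 24 within 2-fold, where 36.6% and 67.2% of all genes with an interval did. The median log2 fold change was -0.08. It was -0.185 with the length slope as a covariate, -0.225 without HFD 2, HFD 3 and HFD 5, and 0.09 with the macrophage score. Cpt1a, which admits fatty acids to mitochondria, had a ratio of 0.972 (0.688 to 1.37). Ppara, the transcription factor of the programme, had a ratio of 1.25, with its direction turned when HFD 2, HFD 3 and HFD 5 were left out. Fgf21, a fasting hormone, had one of 0.509 (0.259 to 0.999), and of 0.722 with the length slope as a covariate. Ppargc1a, a coactivator of mitochondrial and gluconeogenic genes, was at 7.9, 7.19, 6.87, 14 and 4.68 CPM in HFD and at 21.6, 15.5, 14.2, 11.1 and 12 CPM in ZXD, a ratio of 1.83 (1.2 to 2.79). HFD 4 was the 1 HFD library within the ZXD range. The ratio of Ppargc1a was 1.4 with the length slope as a covariate and 1.36 without HFD 2, HFD 3 and HFD 5.

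The mitochondrial respiratory chain was the most tightly bounded list. Of the 26 listed subunit genes that were tested, 22 had an interval within 1.5-fold and 26 within 2-fold, and the median log2 fold change was 0.00. The list does not hold every subunit, and Ndufa3 of complex I, which is outside it, was separated in the lower direction and is given below. Ndufs1, the largest subunit of complex I, stood highest of the list in its fitted ratio at 1.38 (1.11 to 1.7). Of the 28 genes of the urea cycle and amino acid breakdown, 1 was higher and 1 lower at an unadjusted p under 0.05. The higher one was Glul, glutamine synthetase, a marker of the hepatocytes around the central vein. It was at 285, 330, 160, 215 and 296 CPM in HFD and at 557, 487, 391, 424 and 332 CPM in ZXD, with no overlap. The ratio was 1.7 (1.24 to 2.35, adjusted p 0.155, edgeR), and it was 1.64 with the length slope as a covariate and 1.75 without HFD 2, HFD 3 and HFD 5.

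Of 17 thyroid hormone response genes, 5 were called lower and 2 higher in HFD than in CON, where 10.9% and 10% of all genes were. Dio1, the deiodinase that activates thyroxine, was at 11.5, 6.91, 8.79, 23.7 and 6.78 CPM in HFD and at 19.3, 23.5, 14.3, 5.07 and 11.5 CPM in ZXD, against 59 to 232 CPM in CON. The ratio of ZXD to HFD was 1.27 (0.661 to 2.45). Thrsp, a lipogenic target of thyroid hormone, had a ratio of 1.25 (0.704 to 2.23) and was 15.3-fold higher in CON than in HFD. Gpd2, the mitochondrial glycerophosphate dehydrogenase, had a ratio of 3.59 (1.6 to 8.05) at levels of 0.339 to 1.4 CPM in HFD and 0.624 to 6.53 CPM in ZXD. Of the list, 1 gene was higher in ZXD than in HFD and 0 were lower at an unadjusted p under 0.05. The ratios were 0.997 for Dio1 and 0.868 for Thrsp with the length slope as a covariate. Igf1, the liver hormone driven by growth hormone, had a ratio of 1.43 (0.777 to 2.65), and its direction turned with the length slope as a covariate and without HFD 2, HFD 3 and HFD 5.

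Of 26 cytochrome P450 genes of families 1 to 3, 23 had a negative log2 fold change, with a median of -0.29 against 0.02 over all genes, and 0 were higher and 2 lower at an unadjusted p under 0.05, where 6.62% of all genes were lower. That median was -0.10 with the macrophage score as a covariate and -0.30 with the length slope as a covariate. It was -0.26 without HFD 2, HFD 3 and HFD 5. Of 31 genes of conjugation and xenobiotic sensing, 25 were negative, and 1 was higher and 5 were lower at an unadjusted p under 0.05. With the length slope as a covariate 1 was lower, with the macrophage score 1, and without HFD 2, HFD 3 and HFD 5, 0. The median log2 fold change of these genes was -0.25, and it was -0.265, -0.157 and -0.267 in those 3 fits. Cyp2c22, of the 2C family of hydroxylases, was at 651, 1410, 1810, 800 and 1780 CPM in HFD and at 635, 573, 644, 807 and 647 CPM in ZXD, a ratio of 0.513 (0.323 to 0.815). The high libraries were again HFD 2, HFD 3 and HFD 5, and the ratio was 0.927 with the length slope as a covariate and 0.908 without those libraries. Nr1i3, the constitutive androstane receptor, had a ratio of 0.517 (0.284 to 0.941), and 0.857 with the slope as a covariate. Abcg2, an efflux transporter, was at 4.27, 6.21, 8.94, 1.5 and 11 CPM in HFD and at 1.86, 2.34, 1.96, 2.14 and 2.32 CPM in ZXD. Its ratio of 0.334 (0.175 to 0.636) became 0.632 with the length slope as a covariate. P450 genes form a family of close copies, and reads shared between them can have been split in the authors' counting.

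The metallothioneins, short metal-binding proteins, were lower in the fitted ratio. Mt1 was at 805, 828, 913, 534 and 1210 CPM in HFD and at 684, 293, 383, 351 and 337 CPM in ZXD, against 102 to 457 CPM in CON. ZXD 1 was the 1 ZXD library within the HFD range, and the ratio was 0.477 (0.287 to 0.791). Mt2A followed with a ratio of 0.537 (0.303 to 0.952). With the length slope as a covariate the log2 fold changes were -0.63 for Mt1 and -0.21 for Mt2A. The gene lengths of Mt1 and Mt2A, 389 and 383 bases, put both in the shortest class. Atf4, the transcription factor of the amino acid and stress response, had a ratio of 0.67 (0.517 to 0.87), and of 0.812 with the length slope as a covariate.

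Markers of sinusoidal endothelium, the fenestrated lining of the liver's capillaries, were, with the cell cycle genes, a list in which no tested member leaned lower. All 13 had a positive log2 fold change, with a median of 1.08 against 0.02 over all genes. Of the 13, 9 had an unadjusted p under 0.05 and 6 had every ZXD library above every HFD library, where 9.84% and 2.14% of all genes did. The summed level of the 13 was 536, 420, 176, 468 and 350 CPM in HFD 1 to 5 and 855, 803, 758, 691 and 814 CPM in ZXD 1 to 5. CON libraries held 515, 357, 228, 619 and 189 CPM. In HFD and CON the libraries with negative length slopes, HFD 2, HFD 3, HFD 5, CON 2, CON 3 and CON 5, also had the lowest sums of their groups. In ZXD the library with a negative slope, ZXD 3, did not, since the lowest sum was that of ZXD 4. The median length of the markers was 3083 bases. With the slope as a covariate the median log2 fold change of the 13 genes was 0.39 and 1 kept an unadjusted p under 0.05. Without HFD 2, HFD 3 and HFD 5 the median was 0.61, and 1 was higher at that threshold. Once the macrophage score entered the fit, it was 0.89, and 8 of the 13 were higher.

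Lyve1, a hyaluronan receptor, was at 65.7, 49.6, 19, 50.7 and 21.5 CPM in HFD and at 125, 113, 118, 110 and 142 CPM in ZXD. The groups were well apart, with a ratio of 2.95 (1.58 to 5.5, adjusted p 0.155, edgeR), of 1.95 with the slope as a covariate and of 2.08 without the 3 libraries. Cdh5, the cadherin of endothelial junctions, was at 17.8, 16, 6.72, 15.3 and 12.8 CPM in HFD and at 30.8, 29.2, 38, 37.2 and 46.2 CPM in ZXD, also with no overlap. Eng, a co-receptor for transforming growth factor beta, was at 63.9, 68.2, 37, 55.3 and 70.6 CPM in HFD and at 86.2, 74.4, 77.8, 108 and 97.8 CPM in ZXD. The ratio was smaller for Eng, 1.5, than for Cdh5, 2.64. Fcgr2b, the Fc receptor of sinusoidal cells, had a ratio of 2.56, Tek, the angiopoietin receptor, one of 2.14 and Pecam1, a junction adhesion molecule, one of 1.55. Vwf, typical of larger vessels, and Clec4g, a sinusoidal lectin, were near even at 1.07 and 1.03.

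**Figure D4:**
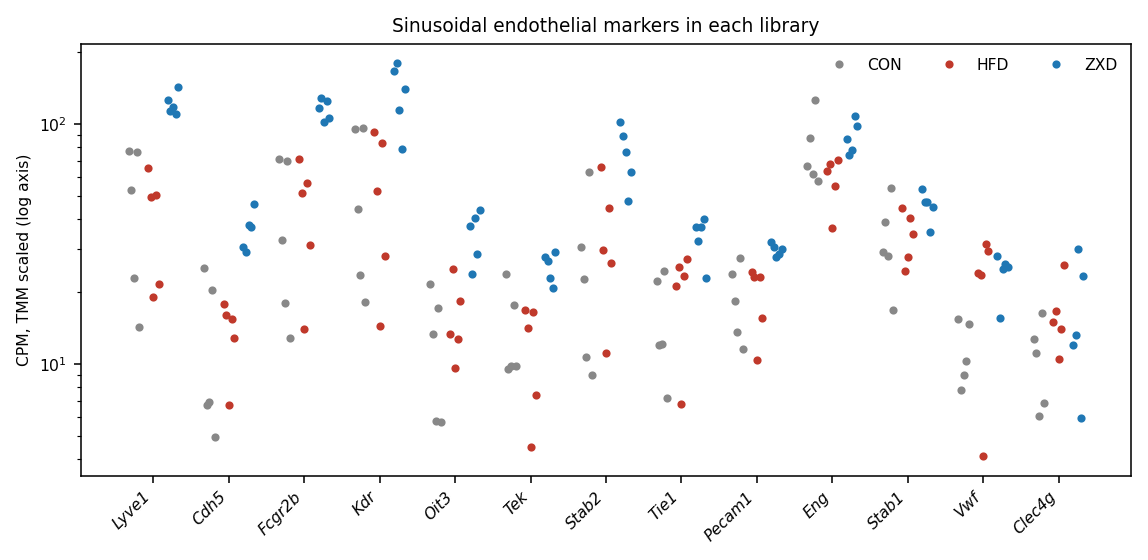
Scaled CPM (log axis) of 13 endothelial marker genes in each CON, HFD and ZXD library; points are libraries. Lyve1 and Cdh5 are separated between HFD and ZXD, while Vwf and Clec4g are not.

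The promoters of 2 separated endothelial genes are shown because ETS factors are known regulators of endothelial genes. Their sites share a short core, and the element searched was 1 extended form of it, AGGAAG, or CTTCCT on the other strand. The windows span 250 bases before to 50 bases after the RefSeq transcript start in build GRCr8, are written in the direction of the gene, and carry the element in capitals. That of Eng lies at chr3:36332029-36332328 on the plus strand with 2 matches, and that of Lyve1 at chr1:174410928-174411227 on the minus strand with 1 match. Of the 13 markers 8 had a window, and 6 of those 8 held the element on either strand, against 34.5% of all 33469 windows. A marker counted if any of its windows held the element, whereas the 34.5% counts single windows, so these shares are not directly comparable. A match describes letters and not a bound site.
Eng: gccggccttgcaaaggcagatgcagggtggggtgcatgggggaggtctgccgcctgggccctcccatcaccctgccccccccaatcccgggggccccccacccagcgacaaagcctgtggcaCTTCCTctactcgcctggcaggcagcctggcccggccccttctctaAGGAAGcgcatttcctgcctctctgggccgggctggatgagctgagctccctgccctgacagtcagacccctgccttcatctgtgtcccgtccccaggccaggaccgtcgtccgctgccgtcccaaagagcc
Lyve1: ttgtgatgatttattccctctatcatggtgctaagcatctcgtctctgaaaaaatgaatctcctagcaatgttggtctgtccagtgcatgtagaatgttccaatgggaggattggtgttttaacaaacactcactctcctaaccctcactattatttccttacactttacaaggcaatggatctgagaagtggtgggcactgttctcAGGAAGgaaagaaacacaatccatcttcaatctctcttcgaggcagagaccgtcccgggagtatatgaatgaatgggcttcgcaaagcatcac

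Macrophage and Kupffer cell markers were higher in sum in several ZXD libraries but uneven. Their summed level was 2200, 5170, 2490, 1080 and 3820 CPM in HFD 1 to 5 and 2960, 1560, 7600, 9380 and 4340 CPM in ZXD 1 to 5, so the groups overlapped. Of 28 markers, 24 had a positive log2 fold change, with a median of 0.56. At an unadjusted p under 0.05, 10 were higher, where 9.84% of all genes were. The median of the markers was 1.15 with the length slope as a covariate and 1.60 without HFD 2, HFD 3 and HFD 5. The scavenger receptor genes of resident macrophages, Cd163 and Mrc1, were the 2 that were separated, where 2.14% of all genes were in that direction. Cd163 was at 38.9, 11, 28.4, 38.6 and 8.61 CPM in HFD and at 67.6, 58.8, 57.9, 54 and 78.2 CPM in ZXD, and Mrc1, which endothelial cells of the sinusoid also express, had a ratio of 2.44 (1.37 to 4.35). The log2 fold change of Cd163 went from 1.33 to 0.74, and that of Mrc1 from 1.29 to 0.50, with the length slope as a covariate. Ccr2, the receptor of recruited monocytes, had a ratio of 4.09 (1.77 to 9.43), and 2.28 without ZXD 4.

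**Figure D5:**
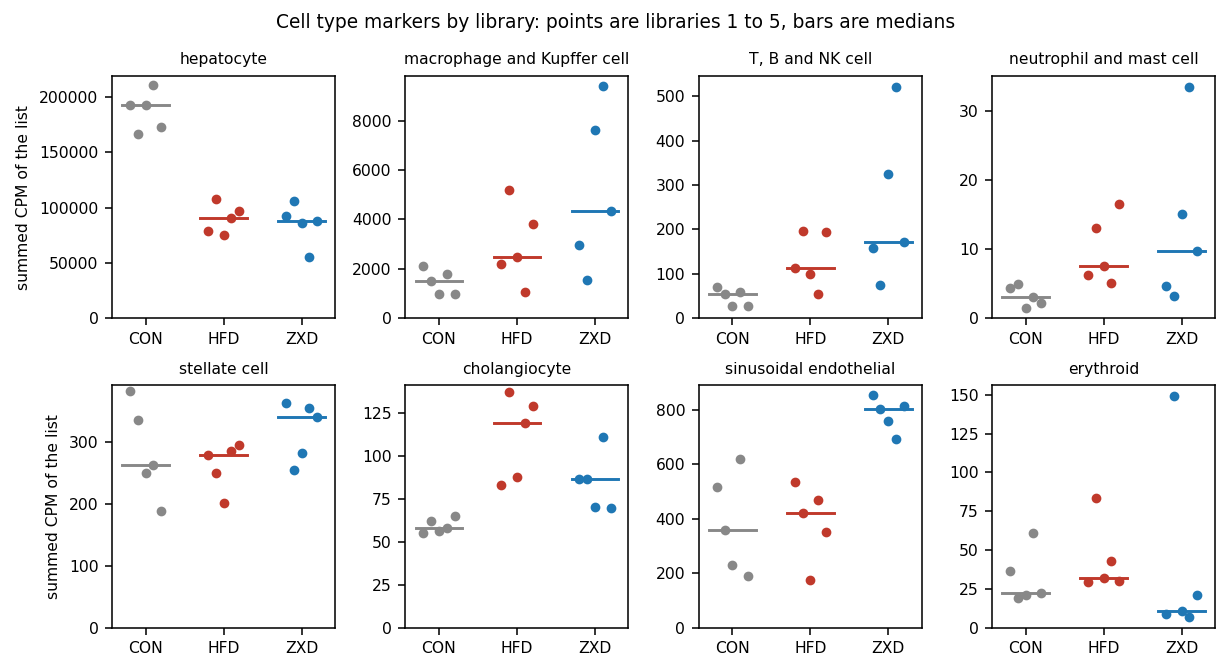
Summed scaled CPM of the marker genes of 8 cell types in each library; points are libraries and bars are group medians. Endothelial sums in ZXD lie at 691 to 855 CPM, above the 176 to 536 CPM of HFD, while macrophage sums overlap, from 1560 to 9380 CPM in ZXD and 1080 to 5170 CPM in HFD.

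Inflammatory signalling and cell cycle genes were uneven across the ZXD libraries. Of 30 inflammatory genes, 24 were positive with a median log2 fold change of 0.62, and 4 were higher at an unadjusted p under 0.05, where 9.84% of all genes were. That median was -0.15 once a macrophage score entered the fit, 1.2 with the length slope as a covariate and 1.36 without HFD 2, HFD 3 and HFD 5, with 8 higher in each of the last 2 fits. The score averaged the macrophage markers, and Ccr2 is in both lists, so a lower median with the score was partly built in. All 24 tested cell cycle genes were positive, with a median of 1.15, and 8 had an unadjusted p under 0.05, beside the same 9.84% of all genes. Top2a, a topoisomerase of dividing cells, was at 1.94, 4.05, 0.812, 0.273 and 2.64 CPM in HFD and at 0.619, 0.156, 10.8, 28.7 and 13.1 CPM in ZXD. ZXD 3, ZXD 4 and ZXD 5 were high, while ZXD 1 lay within the HFD range and ZXD 2 below it. Those 3 libraries also had the highest macrophage sums of ZXD. The median of the cell cycle list was 0.28 once the macrophage score entered the fit and 0.87 with the length slope as a covariate. It was 1.57 without HFD 2, HFD 3 and HFD 5, and 3 were higher at an unadjusted p under 0.05 in each of the last 2 fits. The part of macrophages in these genes was not tested. Tyms, thymidylate synthase, was the 1 separated gene of the cell cycle list, with a ratio of 1.74 (1.17 to 2.58), and of 1.3 with the length slope as a covariate. T, B and NK cell markers summed to 55.4 to 197 CPM in HFD and 75 to 521 CPM in ZXD, with Gzmb at 0 in the diet libraries. Neutrophil and mast cell markers stayed at 5.11 to 16.6 and 3.2 to 33.5 CPM, with Mpo, Tpsab1 and Mcpt1 at 0. Interferon response genes had 24 of 27 positive with a median of 0.54, and 0 at an unadjusted p under 0.05. That median was -0.27 with the macrophage score as a covariate and 0.24 with the length slope as a covariate. It was 0.37 without HFD 2, HFD 3 and HFD 5. The matrix-producing stellate cells had summed markers of 201 to 294 CPM in HFD and 255 to 362 CPM in ZXD. Of these 12 markers 3 were higher at an unadjusted p under 0.05. With the macrophage score 2 were higher, and with the length slope as a covariate 0. Without HFD 2, HFD 3 and HFD 5, 2 were higher and 2 lower.

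Cholangiocyte markers, genes of the bile duct lining, leaned lower. Of 10 tested, 8 had a negative log2 fold change, with a median of -0.70, and 5 were lower at an unadjusted p under 0.05, where 6.62% of all genes were. With the length slope as a covariate the median was -0.33 and 1 was lower. Leaving out HFD 2, HFD 3 and HFD 5 gave a median of -0.32, and 0 were lower. The lean was larger once the macrophage score entered the fit, at a median of -1.36 and 5 lower. Epcam, a cell adhesion molecule, was at 41.8, 59.5, 54.2, 51.8 and 58.2 CPM in HFD and at 42.9, 44.8, 32.1, 26.2 and 32 CPM in ZXD, against 14.6 to 21 CPM in CON. Only HFD 1 overlapped the ZXD range, and the ratio was 0.67 (0.53 to 0.848, adjusted p 0.155, edgeR), or 0.698 with the length slope as a covariate. Krt19, a duct keratin, had a ratio of 0.411 (0.226 to 0.749), Cftr, the chloride channel of duct cells, one of 0.303 (0.136 to 0.678), and Prom1, a progenitor surface protein, one of 0.392 (0.207 to 0.743). Summed markers were at 83.3 to 137 CPM in HFD and 69.5 to 111 CPM in ZXD, and so overlapped. Slc10a2, described with the bile acid transporters, is also made by cholangiocytes, and the part of duct cells in its level was not tested.

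Genes with the smallest p values were mostly outside lipid metabolism. Ubash3b, a phosphatase-like regulator of receptor signalling, was at 1.68, 2.3, 0.96, 2.86 and 2.44 CPM in HFD and at 8.88, 6.63, 8.04, 8.97 and 8.62 CPM in ZXD. Its ratio of 4 (2.48 to 6.44) lay between 3.53 and 4.44 when any 1 diet library was left out, and was 3.03 with the length slope as a covariate. Prelp, a matrix protein, was at 7.25, 6.49, 4.06, 5.38 and 5.29 CPM in HFD and at 10.1, 9.43, 11, 13.4 and 14.8 CPM in ZXD, a ratio of 2.06 (1.59 to 2.67). Ssh2, a cofilin phosphatase, had a ratio of 1.55 (1.33 to 1.81). Each of these 3 had an adjusted p of 0.11 in edgeR's quasi-likelihood test, with a range over the alternatives from 1.07e-05 for Ubash3b under DESeq2 to 0.374. Without HFD 1, 7 genes were called, Dlat, Dlc1_1, Gda, Itgb3, Mbnl1, Prelp and Rprm, 6 of them higher in ZXD. Without HFD 3, 1 gene was called, Mmp15, lower in ZXD.

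Among separated genes whose higher group averaged 5 CPM or more, the largest ratio was that of Pilra, an inhibitory receptor of myeloid cells, at 0.647, 0, 1.7, 0.204 and 1.49 CPM in HFD and at 5.02, 2.96, 3.77, 10.3 and 3.04 CPM in ZXD. Its ratio was 6.19 (2.22 to 17.3). Efnb2, an ephrin of arterial and sinusoidal endothelium, followed with a ratio of 4.69 (2.32 to 9.49), and Nrp1, a co-receptor for vascular endothelial growth factor, was at 9.71, 8.38, 1.62, 8.93 and 5.83 CPM in HFD and at 16.5, 14.9, 25.4, 31.9 and 17.9 CPM in ZXD. Tlr5, the flagellin receptor, was at 7.25, 9.84, 7.83, 9.27 and 3.19 CPM in HFD and at 17.2, 11.8, 31.4, 40 and 25.3 CPM in ZXD, a ratio of 3.37 (1.94 to 5.84). At the lower end, after Slc10a2 and Cd36, ratios were closer to even. Polr2f, a shared subunit of the RNA polymerases, was at 4.99, 6.42, 7.16, 5.52 and 7.19 CPM in HFD and at 3.51, 3.59, 2.66, 3.72 and 3.55 CPM in ZXD, a ratio of 0.545 (0.423 to 0.702). Ndufa3, a small subunit of complex I, had a ratio of 0.564 (0.411 to 0.773), and Tjp3, a tight junction protein, one of 0.577 (0.396 to 0.841). Polr2f and Ndufa3 have gene lengths of 470 and 429 bases, and so also fall in the shortest class.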

How the data were processed

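All 15 liver RNA-seq libraries (5 CON, 5 HFD, 5 ZXD) were used. The authors deposited 1 table with raw read counts and FPKM for 21576 genes, per the file headers, and the submitters' processing notes name edgeR. The aligner, genome build, annotation and strand setting behind these counts were not given in the sources used here. FPKM deposited by the authors equalled the count divided by gene length and total within 0.01% in 100% of values above 0, and served as that check only. Counts were scaled by TMM and tested with edgeR 4.0.16 (R 4.3.3) quasi-likelihood over all 15 libraries with group as the sole term, after filterByExpr (count 10, total 15), with Benjamini-Hochberg adjustment over 13163 genes. Intervals are 95% Wald intervals. limma 3.58.1, DESeq2 1.42.0, single-library omission, other filters and scalings, a replicate block, a macrophage score and length corrections were alternatives. The code was tested on simulated data. Named genes were a fixed set of lipid, bile acid, thyroid and cell type genes, the 10 of smallest p, the 10 largest ratios in each direction among non-overlapping genes and the member of smallest p of each of 34 lists, and further list members described here were chosen after their values were seen. The genes and lists were chosen with earlier results of these data known. Some genes are not reported here.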

Additional observations from a re-analysis of the deposited data

Results flagged for a closer look

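Single libraries stood apart from the other 4 of their group in 20 of 240 sets of values, by Dixon's criterion, which chance meets in about 5% of sets. HFD 4 held Nr0b2 at 100 CPM (others 16.4 to 34.8), Slc10a1 at 546 CPM (212 to 308), Scd at 185 CPM (49.6 to 80.7) and Dio1 at 23.7 CPM (6.78 to 11.5). The same library was low in Bank1 at 0.545 CPM (1.56 to 1.94). HFD 3 was high in Nr1i3 at 322 CPM (81.1 to 151) and Aknad1 at 15.6 CPM (7.12 to 9.39), HFD 5 in Cyp1a2 at 822 CPM (348 to 449), and HFD 2 in summed erythroid markers at 83.5 CPM (29.1 to 43).

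ZXD 4 was high in genes of monocytes and matrix: Ccl2 at 43.9 CPM (0.936 to 10.6), Col1a1 at 56.7 CPM (1.72 to 12.8), Pilra at 10.3 CPM (2.96 to 5.02), Loxl2 at 12.9 CPM (3.66 to 6.09) and Ccr2 at 9.95 CPM (0.858 to 3.35). ZXD 2 held Srebf1 at 107 CPM (74.2 to 80.0) and summed erythroid markers at 149 CPM (6.96 to 20.9). ZXD 5 held Pdk4 at 149 CPM (63.9 to 88), ZXD 1 held Mt1 at 684 CPM (293 to 383), and ZXD 3 was low in Polr2f at 2.66 CPM (3.51 to 3.72). The length slope of ZXD 3 was -0.0118, against 0.0554 to 0.0716 in the other ZXD libraries.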

How the results depend on the processing

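The count of 0 called genes became 348 with DESeq2's Wald test, 7 without HFD replicate 1 and 1 without HFD replicate 3, and stayed at 0 in the other settings run. The count of separated genes, 484 in the 10 libraries, ran from 482 to 969 over single-library omissions and was 419 with a level of 5 CPM required. It was 2043 without HFD 2, HFD 3 and HFD 5. In each omission of diet libraries, fewer libraries make separation easier. Of 3051 values for named genes over 28 settings, 2914 kept their sign and side of the threshold, 37 passed the threshold and 100, from 37 genes, changed sign. In 16 of those 100 the reported log2 fold change was larger than its own standard error. With the macrophage score as a covariate, log2 fold changes turned to 0.0224 for Hmgcs1, -0.0878 for Mylip, -0.428 for Abcg1, 0.0688 for Abcg5, 0.144 for Slc10a1, -0.0416 for Fasn, 0.14 for Cpt1a, 0.105 for Nr1i2, 0.0209 for Cyp3a9, -0.114 for Hmox1, -0.754 for Tnf, -0.669 for Il1b, -0.911 for Ccl2, -0.228 for Ciita and -0.49 for Csf3r. With the length slope as a covariate they turned to -0.0598 for Fdps, -0.0539 for Cyp7a1, -0.392 for Cyp8b1, 0.0374 for Nr1h4, -0.197 for Acaca, 0.315 for Plin2, -0.227 for Apoa4, -0.0273 for Mttp, -0.371 for Lipc, -0.0717 for Fabp1, 1.19 for Pdk4, -0.00437 for Dio1, -0.205 for Thrsp, -0.311 for Igf1, 0.159 for Cyp1a2, 0.185 for Nqo1, 1.42 for Col1a1 and -0.288 for Hba-a1. Without HFD 2, HFD 3 and HFD 5 they turned to -0.00849 for Fdps, 0.052 for Sqle, -0.193 for Acaca, -0.319 for Apoa4, 0.203 for Lpl, -0.216 for Lipc, -0.000835 for Fabp1, -0.152 for Ppara, 0.751 for Pdk4, -0.263 for Dio1, -0.122 for Thrsp, -0.205 for Igf1, 0.165 for Cyp1a2, 0.615 for Nqo1 and 1.61 for Col1a1. Limma voom gave -0.0292 for Lipc, 0.00888 for Cpt1a, 0.0128 for Cyp1a2 and 0.388 for Col1a1, and library totals as the scale gave -0.0126 for Lipc and 0.00469 for Col1a1. Lipc, near 0, also turned to -0.00406 with DESeq2's size factors, -0.00414 in DESeq2's test and -0.0179 in a fit to the 10 diet libraries, and length-corrected offsets gave -0.0601 for Mttp. Over single-library omissions the genes that changed sign ranged from -0.35 to 1.88 for Ccl2, -1.18 to 0.42 for Col1a1, -0.183 to 0.122 for Cpt1a, -0.155 to 0.23 for Cyp1a2, -0.231 to 0.0489 for Cyp27a1, -0.0821 to 0.385 for Fasn, -0.0625 to 0.108 for Fdps, -0.253 to 0.0436 for Hmgcs1, -0.0633 to 0.702 for Il1b, -0.151 to 0.15 for Lipc, -0.0528 to 0.154 for Mttp, -0.222 to 0.00727 for Nr1h4, -0.482 to 0.111 for Pdk4, -0.402 to 0.119 for Slc10a1 and -0.133 to 2.44e-05 for Sqle. The cause of these turns was not tested. Replicate numbers are shared by the groups but do not pair the libraries: same-numbered HFD and ZXD deviations correlated between -0.547 and 0.105, and 0 of 5 HFD libraries correlated best with its own number. With the replicate block 0 genes were called, 2057 had an unadjusted p under 0.05, and log2 fold changes turned to 0.028 for Pdk4 and 0.776 for Col1a1.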
